A study of Mus musculus with 18 samples.

Results

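The genes of leukotriene and prostaglandin synthesis were followed in visceral fat (WAT) of diabetic mice that received the fibrate bezafibrate (BEZ). The set holds 10 genes, namely Ltc4s, Alox5, Alox5ap and Lta4h of the leukotriene branch and Ptgs1, Ptgs2, Ptges, Hpgds, Ptgds and Ptgis of the prostaglandin branch. Of these, 9 were measured among 19938 genes on the array, each by 1 probe set, and Ptgs1, which encodes cyclooxygenase 1, was not analysed here. The set was chosen by the signal of Ltc4s on these arrays, which was lower in diabetic WAT and higher again with BEZ. The values of Ltc4s are therefore given as a description without a test, and the other 8 measured genes were read from a fit over all genes.

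The study asked how BEZ acts on gene expression in diabetic mice. The STZ, BEZ group held 5 mice, which were injected with streptozotocin (STZ) at 65 mg/kg on 5 days and then ate chow with 0.25 or 0.5% BEZ for 8 weeks, starting 2 weeks after STZ. The STZ, SD group held 6 mice with the same injections on standard diet (SD) without BEZ, and the Con, SD group held 7 mice that got citrate buffer and standard diet. All were male wildtype C57BL/6N mice, injected at 10 to 16 weeks and 5 to 6 months old at sampling, with 1 array per mouse. These details follow the sample labels, and the methods of the study give the STZ dose, the BEZ dose, the ages and the handling of controls differently. The labels do not say which mice received which BEZ dose. STZ destroys insulin-producing beta cells, so these mice model insulin-deficient diabetes, and BEZ activates the PPAR family of nuclear receptors. Signals are on the log2 scale, differences are the first group minus the second, and a gene was called when the adjusted p of limma was under 0.1.

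Leukotrienes and prostaglandins are short-lived lipid mediators made from arachidonic acid that phospholipases release from membranes. Alox5, helped by the membrane protein encoded by Alox5ap, turns arachidonic acid into leukotriene A4, which Lta4h converts into the neutrophil attractant leukotriene B4 or which the product of Ltc4s joins to glutathione to give leukotriene C4. The cyclooxygenases make prostaglandin H2, from which Ptges makes prostaglandin E2, Hpgds and Ptgds make prostaglandin D2 and Ptgis makes prostacyclin. In fat, prostaglandin E2 is known to restrain lipolysis through the receptor encoded by Ptger3, and leukotrienes are mostly known as products of resident leukocytes.

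Of the 8 tested genes, 1 was called in STZ, SD vs Con, SD, and it was Ptges, which fell. The share of all genes called in that comparison was 10.3%. None of the 8 was called in STZ, BEZ vs STZ, SD, where 0.707% of all genes were called, or in STZ, BEZ vs Con, SD, where 5.95% were called. At an unadjusted p under 0.05 the counts in limma were 2, 0 and 1 of 8 in the 3 comparisons, beside 20.3%, 10.2% and 18.3% of all genes. SAM at a false discovery rate of 10% called 1, 0 and 4 of the 8 (Ptges, and in STZ, BEZ vs Con, SD Lta4h, Hpgds, Ptgds and Ptgis), beside 12.7%, 3.24% and 25.1% of all genes. The median difference of the 8 was -0.44 in STZ, SD vs Con, SD, 0.20 in STZ, BEZ vs STZ, SD and -0.08 in STZ, BEZ vs Con, SD, beside medians over all genes of -0.03, 0.01 and -0.01.

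The array does not read the sequence upstream of a gene, but BEZ acts through PPARs, so the bases before the start of Ltc4s, Ptges and Ptgs2 are shown for reference. These 3 genes are the one with the largest difference on BEZ, the one called in diabetes and the one with the widest range across arrays. The sequences are the 250 bases before the RefSeq start in GRCm38.p6, 5′ to 3′ on the strand of the gene, at chr11:50238533-50238782 (minus strand), chr2:30903298-30903547 (minus strand) and chr1:150099781-150100030 (plus strand), with matches to the motifs searched in capitals.
Ltc4s: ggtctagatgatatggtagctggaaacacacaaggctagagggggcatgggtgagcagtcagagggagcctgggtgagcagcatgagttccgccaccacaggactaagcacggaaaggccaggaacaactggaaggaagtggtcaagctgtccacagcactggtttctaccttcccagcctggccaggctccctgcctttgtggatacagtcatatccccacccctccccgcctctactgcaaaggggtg
Ptges: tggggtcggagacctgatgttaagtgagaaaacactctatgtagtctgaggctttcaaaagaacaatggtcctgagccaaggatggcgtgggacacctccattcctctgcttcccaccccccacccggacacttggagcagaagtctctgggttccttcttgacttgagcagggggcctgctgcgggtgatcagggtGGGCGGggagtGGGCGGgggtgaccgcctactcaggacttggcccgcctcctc
Ptgs2: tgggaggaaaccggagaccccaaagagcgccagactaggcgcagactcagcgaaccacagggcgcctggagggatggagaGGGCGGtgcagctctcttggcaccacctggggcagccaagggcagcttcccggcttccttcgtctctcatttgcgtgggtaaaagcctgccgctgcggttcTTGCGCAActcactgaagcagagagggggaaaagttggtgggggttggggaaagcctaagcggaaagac
Of the 10 genes, 8 had such a promoter in RefSeq (all but Alox5ap and Ptgis). The motifs were searched on both strands. The hexamer AGGTCA bound by PPARs and other nuclear receptors, its direct repeat AGGTCANAGGTCA and the TATA motif TATAAA had no match in any of the 8 windows, and they occur in 14%, 0.0335% and 12.4% of 32851 mouse promoters. The C/EBP palindrome TTGCGCAA, found in 0.164% of promoters, occurred in Ptgs2, starting at position -69 from the gene start. The Sp1 motif GGGCGG, found in 32.7% of promoters, occurred at -170 in Ptgs2, at -53 and -42 in Ptges and at -35 in Alox5. No motif matched in the Ltc4s window. A match is a string of letters and was not tested as a binding site.

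Ltc4s had signals of 10.02, 9.93, 10.29, 10.23 and 10.03 in the STZ, BEZ arrays. In STZ, SD WAT its signal ran from 7.05 over a median of 7.87 to 8.90, and in Con, SD WAT it ran from 8.34 over 9.30 to 9.77. The STZ, BEZ arrays lay close together and above every array of the other groups, while the STZ, SD and Con, SD arrays overlapped. The group means were 10.10 ± 0.15 in STZ, BEZ (SD, n = 5), 7.99 ± 0.67 in STZ, SD (n = 6) and 9.15 ± 0.56 in Con, SD (n = 7). The difference was -1.16 (SE 0.28) in STZ, SD vs Con, SD, and all 6 STZ, SD arrays were below the Con, SD mean. It was 2.11 (SE 0.30) in STZ, BEZ vs STZ, SD, a signal ratio of 4.32, and 0.95 (SE 0.29) in STZ, BEZ vs Con, SD, a ratio of 1.93. The groups do not overlap for 1.62%, 1.49% and 6.8% of all genes in these 3 comparisons, and since Ltc4s was chosen for its pattern nothing is read from these shares.

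The Ltc4s signal tended to move with the white adipocyte markers, and on part of the arrays with the macrophage markers. The mean of 14 white adipocyte markers, out of 15 listed, was 12.25 to 12.54 in STZ, BEZ, 10.18 to 12.47 in STZ, SD and 11.96 to 12.61 in Con, SD. The STZ, SD array with the lowest list mean (10.18, replicate 6) also had the lowest Ltc4s signal. Replicate 6 had the highest pancreas marker mean of all arrays (12.46). Its macrophage, mast cell and fibroblast means (8.00, 5.69 and 9.55) were the lowest of STZ, SD as well. The part of pancreas tissue in its low Ltc4s signal was not tested. The STZ, SD arrays with the highest adipocyte list means (12.47 and 12.32, replicates 5 and 1) had the highest Ltc4s signals, 8.90 and 8.59. With the list mean as a covariate, the Ltc4s differences were -0.44 in STZ, SD vs Con, SD, 1.32 in STZ, BEZ vs STZ, SD and 0.87 in STZ, BEZ vs Con, SD. Among arrays of similar list mean, Ltc4s was 10.02, 10.29 and 10.23 in STZ, BEZ replicates 1, 3 and 4 (list means 12.44 to 12.54). It was 8.90 in STZ, SD replicate 5 (12.47). In Con, SD replicates 2, 4, 6 and 7 (12.54 to 12.61) it was 9.30, 9.77, 9.51 and 9.67. All 14 markers were lower by their means in STZ, SD vs Con, SD, but unevenly. The 3 called were Lep (-3.83), Dgat2 (-1.66) and Gpd1 (-1.23), while Adipoq differed by -0.10 and Fabp4 by -0.04. The list mean therefore cannot be read as adipocyte content alone. In bulk tissue, fewer cells of a type and less RNA per cell cannot be told apart, and the part of adipocyte content in the Ltc4s result was not tested beyond this covariate.

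Leukotriene C4 synthase is best known from mast cells, eosinophils and macrophages, so their markers were read beside it. The mean of 11 mast cell markers was 5.96 to 6.27 in STZ, BEZ, 5.69 to 6.44 in STZ, SD and 5.64 to 6.18 in Con, SD, and none of the 11 was called in any comparison. The mean of 6 eosinophil markers was 5.56 to 5.79, 5.32 to 5.66 and 5.50 to 5.82 in the same order of groups. All 6 were lower by their means in STZ, SD vs Con, SD, where 1 was called (Ear6, an eosinophil-associated ribonuclease, -0.31, adjusted p = 0.0271), and 5 of 6 were higher in STZ, BEZ vs STZ, SD, none of them called. The part of eosinophil content in the Ltc4s result was not tested. The mean of 12 macrophage markers was 8.87 to 9.23 in STZ, BEZ, 8.00 to 9.16 in STZ, SD and 8.44 to 9.30 in Con, SD. All of these ranges overlapped between the groups, as did those of the adipocyte mean. In STZ, SD the macrophage mean was lowest in replicate 6 (8.00) and highest in replicate 5 (9.16), the arrays with the lowest and highest Ltc4s of that group. Between these the order did not hold. Replicates 4 and 2 had macrophage means of 8.99 and 8.96 at Ltc4s signals of 7.64 and 7.90, and replicate 1 had 8.91 at 8.59. In Con, SD the macrophage mean was highest in replicates 4 and 7 (9.30 and 9.13), which had the highest Ltc4s signals (9.77 and 9.67). It was lowest in replicates 1 and 5 (8.54 and 8.44), which had the lowest (8.34 and 8.53). The white adipocyte mean of Con, SD was also lowest in replicates 1 and 5 (11.98 and 11.96). It was highest in replicate 6 (12.61), where Ltc4s was 9.51. Replicate 1 had a smooth muscle mean of 11.19 and replicate 5 an epididymis and testis mean of 11.57, each the highest of Con, SD. The part of other organs in the low Ltc4s signals of these arrays was not tested. With the macrophage mean as a covariate the Ltc4s differences were -1.03, 1.75 and 0.72, and the part of macrophage content was not tested beyond this. The gene whose centred signal was closest to that of Ltc4s over the 18 arrays, among 18618 named genes, was Gpd1, the glycerol-3-phosphate dehydrogenase of adipocytes and itself in the adipocyte list, with a mean absolute difference of 0.23. Fgf10, a growth factor of adipocyte precursors, Tmem120b, Adam12 and Tmem120a followed at 0.31, 0.31, 0.32 and 0.32. Gpd1 averaged 12.24 ± 0.22 in STZ, BEZ, 10.36 ± 0.57 in STZ, SD and 11.59 ± 0.51 in Con, SD. These genes were picked for their closeness to Ltc4s on the same arrays, so their group pattern follows from that choice. Nothing about the source of the Ltc4s signal is read from it.

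**Figure D1:**
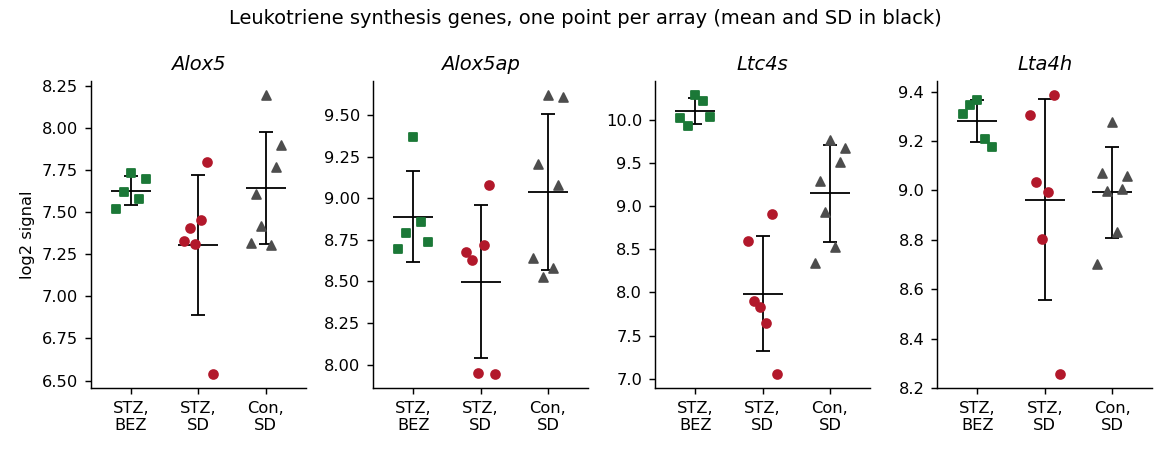
Signals (log2) of Alox5, Alox5ap, Ltc4s and Lta4h in the STZ, BEZ, STZ, SD and Con, SD arrays, with 1 point per array and the group mean and SD in black; each panel has its own axis. Ltc4s separates the STZ, BEZ arrays (9.93 to 10.29) from all others, while the other genes overlap between groups.

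Alox5 encodes the 5-lipoxygenase that starts leukotriene synthesis. Its signals were 7.52, 7.62, 7.73, 7.58 and 7.69 in STZ, BEZ, 6.54 to 7.80 (median 7.37) in STZ, SD and 7.30 to 8.20 (median 7.61) in Con, SD. All groups overlapped, and only STZ, SD replicate 6 stood low at 6.54. The difference was -0.34 (SE 0.17, adjusted p = 0.285) in STZ, SD vs Con, SD and 0.32 (SE 0.19, adjusted p = 0.605) in STZ, BEZ vs STZ, SD. The first of these became called with the macrophage mean as a covariate and turned to 0.053 with the white adipocyte mean as a covariate.

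Alox5ap, which encodes the protein that presents arachidonic acid to 5-lipoxygenase, had signals of 8.69, 8.79, 9.37, 8.85 and 8.74 in STZ, BEZ. They ran from 7.94 over 8.65 to 9.08 in STZ, SD and from 8.53 over 9.08 to 9.62 in Con, SD. The groups overlapped, with STZ, SD replicates 3 and 6 below all other arrays. The differences were -0.54 (SE 0.22, adjusted p = 0.169) in STZ, SD vs Con, SD, 0.39 (SE 0.24, adjusted p = 0.639) in STZ, BEZ vs STZ, SD and -0.15 (SE 0.23, adjusted p = 0.792) in STZ, BEZ vs Con, SD. The macrophage markers were low on the same arrays, at 8.32 in STZ, SD replicate 3 and 8.00 in replicate 6. The endothelial means (8.57 and 8.96) and the fibroblast means (9.81 and 9.55) of these arrays were the lowest of STZ, SD as well. Replicate 3 had an epididymis and testis mean of 11.36 and replicate 6 a pancreas mean of 12.46, each the highest of STZ, SD. The part of other organs in the low Alox5ap signals was not tested. The genes closest to Alox5ap were Clec4a2, Ptafr and Cd300lb, all known from myeloid cells, with mean absolute differences of 0.10, 0.11 and 0.12. They were looked up after the values of Alox5ap were seen. With the macrophage mean as a covariate, Alox5ap was lower in STZ, SD than in Con, SD by a called difference of -0.42 (adjusted p = 0.00965), and in STZ, BEZ than in Con, SD by -0.36 (adjusted p = 0.0432). With the white adipocyte mean as a covariate the difference in STZ, SD vs Con, SD was -0.10 (adjusted p = 0.805). It was called with the pancreas and epididymis means as covariates (-0.64, adjusted p = 0.0322), without the 6 arrays of high epididymis signal (-0.90, adjusted p = 0.0720) and without STZ, SD replicate 5 (-0.65, adjusted p = 0.0891).

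Lta4h, the hydrolase that makes leukotriene B4, had signals of 9.31, 9.34, 9.37, 9.21 and 9.18 in STZ, BEZ, 8.26 to 9.39 (median 9.01) in STZ, SD and 8.70 to 9.28 (median 9.0) in Con, SD. The STZ, BEZ arrays lay at the upper end of both other groups and overlapped with them. The differences were -0.03 (SE 0.14, adjusted p = 0.938) in STZ, SD vs Con, SD, 0.32 (SE 0.16, adjusted p = 0.506) in STZ, BEZ vs STZ, SD and 0.29 (SE 0.15, adjusted p = 0.322) in STZ, BEZ vs Con, SD. With the white adipocyte mean as a covariate the first of these was 0.35 and was called (adjusted p = 0.0182). The difference in STZ, BEZ vs Con, SD was called in 5 of 17 other settings (SAM, array weights, a fit of these groups alone, the pancreas and epididymis covariates and the adipocyte covariate), at 0.25 to 0.42.

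Mgst2 encodes a microsomal glutathione transferase related to the Ltc4s product that can also make leukotriene C4, and it was looked at after its values were seen. Its signals were 8.72, 9.21, 8.59, 8.97 and 9.44 in STZ, BEZ, 7.16 to 9.77 (median 7.83) in STZ, SD and 6.11 to 7.65 (median 7.10) in Con, SD. All STZ, BEZ arrays were above all Con, SD arrays, while STZ, SD overlapped with both. It rose by 1.92 (SE 0.38, adjusted p = 0.0134) in STZ, BEZ vs Con, SD. The differences were 1.03 (SE 0.36, adjusted p = 0.104) in STZ, SD vs Con, SD and 0.89 (SE 0.40, adjusted p = 0.453) in STZ, BEZ vs STZ, SD. The Mgst2 means of both diabetic groups were above that of Con, SD, whereas the Ltc4s mean of STZ, SD was below it. Of the leukotriene receptors, Cysltr1 had differences of -0.18 (SE 0.19), 0.27 (SE 0.21) and 0.09 (SE 0.20) in the 3 comparisons. For Cysltr2 they were 0.07, 0.00 and 0.08 and for the leukotriene B4 receptor gene Ltb4r1 -0.07, 0.03 and -0.04, and none of these 3 genes was called.

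**Figure D2:**
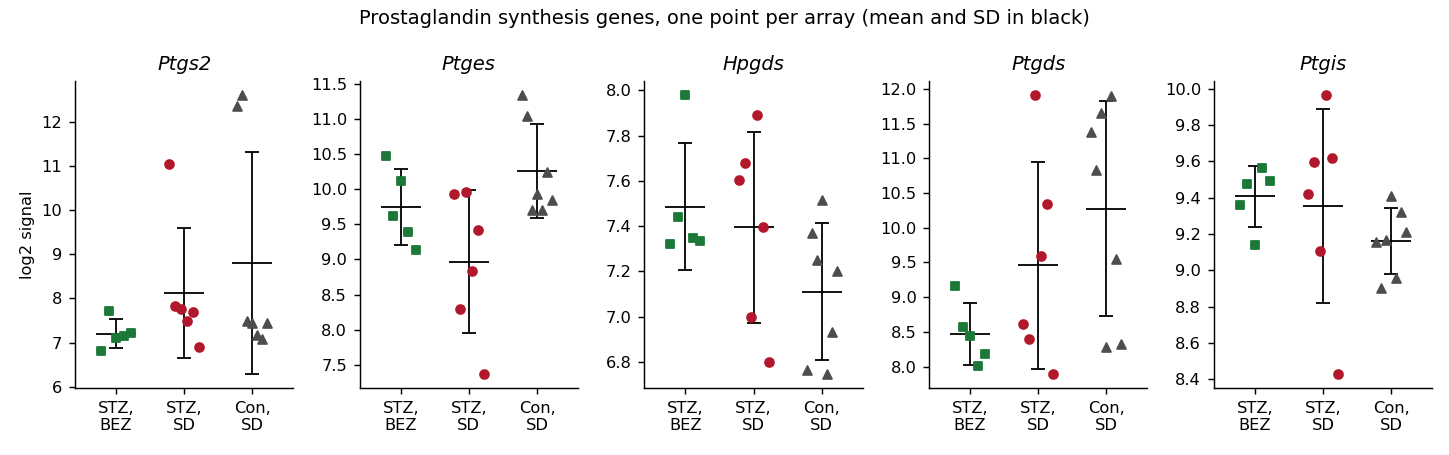
Signals (log2) of Ptgs2, Ptges, Hpgds, Ptgds and Ptgis in the STZ, BEZ, STZ, SD and Con, SD arrays, with 1 point per array and the group mean and SD in black; each panel has its own axis. Ptgs2 is high on 3 arrays (11.04 to 12.61) and 6.80 to 7.83 on the rest, and Ptgds spreads from 7.89 to 11.92.

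Ptges encodes the inducible microsomal prostaglandin E synthase, and it was the tested gene that was called. Its signals were 10.47, 9.62, 10.12, 9.39 and 9.14 in STZ, BEZ, 7.36 to 9.96 (median 9.12) in STZ, SD and 9.70 to 11.34 (median 9.93) in Con, SD. STZ, SD replicates 1 and 3 (9.93 and 9.96) overlapped with the Con, SD arrays, and the other STZ, SD arrays were below all of them. The means were 9.75 ± 0.54 in STZ, BEZ (SD, n = 5), 8.97 ± 1.02 in STZ, SD (n = 6) and 10.26 ± 0.67 in Con, SD (n = 7). Ptges fell by 1.29 (SE 0.40, adjusted p = 0.0675) in STZ, SD vs Con, SD, lower than the Con, SD mean in 6 of 6 arrays. Its highest signals of all arrays, 11.34 and 11.05, were in Con, SD replicates 1 and 2. These arrays also had high means of the smooth muscle markers (11.19 and 10.60). The other array of high smooth muscle mean, STZ, SD replicate 1 (10.72), had a Ptges signal of 9.93. The part of smooth muscle tissue in the Ptges difference was not tested. The differences were 0.78 (SE 0.44, adjusted p = 0.584) in STZ, BEZ vs STZ, SD and -0.51 (SE 0.42, adjusted p = 0.563) in STZ, BEZ vs Con, SD, with STZ, BEZ between the other groups. The call was lost in a fit of STZ, SD and Con, SD alone (adjusted p = 0.131) and without any 1 of STZ, SD replicates 2 and 4 and Con, SD replicates 1, 2 and 6 (adjusted p = 0.106 to 0.151). With the white adipocyte mean as a covariate the difference was -0.65 (adjusted p = 0.378). The genes closest to Ptges were Tbc1d7, the mitochondrial ribosomal gene Mrps6 and Tlcd1, with mean absolute differences of 0.36, 0.36 and 0.38.

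Ptges2, which encodes a further prostaglandin E synthase, had signals of 8.16, 8.09, 8.02, 7.80 and 8.00 in STZ, BEZ, 6.96 to 7.83 (median 7.49) in STZ, SD and 7.35 to 7.90 (median 7.54) in Con, SD. Of the STZ, BEZ arrays, only replicate 4 (7.80) overlapped with the other groups. It rose by 0.57 (SE 0.14, adjusted p = 0.0915) in STZ, BEZ vs STZ, SD and by 0.44 (SE 0.13, adjusted p = 0.0844) in STZ, BEZ vs Con, SD, and the difference was -0.14 (adjusted p = 0.598) in STZ, SD vs Con, SD. The call in STZ, BEZ vs STZ, SD was lost in 24 of 35 alternatives, with differences of 0.47 to 0.65, and that in STZ, BEZ vs Con, SD in 18 of 35, with differences of 0.37 to 0.50.

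Ptgs2 encodes the inducible cyclooxygenase 2. Its signals were 6.80, 7.72, 7.11, 7.14 and 7.21 in STZ, BEZ, 6.89 to 11.04 (median 7.73) in STZ, SD and 7.07 to 12.61 (median 7.45) in Con, SD. The high values came from 3 arrays, namely STZ, SD replicate 1 (11.04) and Con, SD replicates 1 and 2 (12.36 and 12.61), and every other array was at or below 7.83. The differences had large errors, with -0.68 (SE 0.94, adjusted p = 0.742) in STZ, SD vs Con, SD, -0.92 (SE 1.02, adjusted p = 0.833) in STZ, BEZ vs STZ, SD and -1.60 (SE 0.99, adjusted p = 0.413) in STZ, BEZ vs Con, SD. The same 3 arrays had the highest mean of 6 smooth muscle markers, at 10.72 in STZ, SD replicate 1 and 11.19 and 10.60 in Con, SD replicates 1 and 2, against 8.98 to 9.99 on all other arrays. Slco2a1, the prostaglandin transporter, was also highest there (9.75, 10.79 and 10.77). The genes closest to Ptgs2 were Pcp4 and the smooth muscle gene Cnn1, at mean absolute differences of 0.41 and 0.67. Without these 3 arrays, which are also those of high Ptgs2, so that the choice itself removes the high values, the Ptgs2 differences were 0.21, -0.34 and -0.13. The part of smooth muscle tissue in the Ptgs2 signal was not tested.

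Ptgds encodes the lipocalin-type prostaglandin D synthase, which is known to be abundant in brain and male genital organs. Its signals were 9.16, 8.57, 8.44, 8.01 and 8.18 in STZ, BEZ, 7.89 to 11.92 (median 9.10) in STZ, SD and 8.29 to 11.90 (median 10.83) in Con, SD. The groups overlapped, and the STZ, BEZ arrays were all low. The differences were -0.81 (SE 0.68, adjusted p = 0.562) in STZ, SD vs Con, SD, -0.99 (SE 0.74, adjusted p = 0.721) in STZ, BEZ vs STZ, SD and -1.80 (SE 0.72, adjusted p = 0.189) in STZ, BEZ vs Con, SD. The mean of 16 epididymis and testis markers was 5.68 to 6.30 in STZ, BEZ, 5.64 to 11.36 in STZ, SD and 6.57 to 11.57 in Con, SD. The 3 arrays with the highest list means, STZ, SD replicate 3 and Con, SD replicates 3 and 5, had the 3 highest Ptgds signals (11.92, 11.66 and 11.90). Con, SD replicate 1 had 11.38 for Ptgds at a list mean of 7.87. With the epididymis and pancreas means as covariates the Ptgds differences were 0.02, -0.13 and -0.11, and without the 6 arrays of high epididymis signal they were -0.33, -0.34 and -0.67. The difference in STZ, BEZ vs Con, SD was called in 3 of 17 other settings, namely SAM, array weights (-1.54, adjusted p = 0.0600) and the replicate block (-2.39, adjusted p = 0.0860). The genes closest to Ptgds were Pax8, Kcnk1 and Ramp3, at mean absolute differences of 0.32, 0.35 and 0.38.

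Hpgds, the haematopoietic prostaglandin D synthase, had signals of 7.32, 7.44, 7.98, 7.35 and 7.34 in STZ, BEZ, 6.80 to 7.89 (median 7.5) in STZ, SD and 6.74 to 7.52 (median 7.20) in Con, SD. The groups overlapped. The differences were 0.28 (SE 0.18, adjusted p = 0.422) in STZ, SD vs Con, SD, 0.09 (SE 0.20, adjusted p = 0.929) in STZ, BEZ vs STZ, SD and 0.37 (SE 0.19, adjusted p = 0.308) in STZ, BEZ vs Con, SD. Ptgis, the prostacyclin synthase of vessel walls, had signals of 9.36, 9.48, 9.14, 9.56 and 9.49 in STZ, BEZ, 8.43 to 9.96 (median 9.51) in STZ, SD and 8.90 to 9.41 (median 9.17) in Con, SD. The groups overlapped, and STZ, SD replicate 6 was the lowest array. The differences were 0.20 (SE 0.18, adjusted p = 0.600), 0.05 (SE 0.20, adjusted p = 0.965) and 0.25 (SE 0.19, adjusted p = 0.522) in the same comparisons. Without STZ, SD replicate 6 the first was 0.38 and was called (adjusted p = 0.0719), as it was with array weights (0.43, adjusted p = 0.0636). With the pancreas and epididymis covariates the third was 0.52 and was called (adjusted p = 0.0704). For Hpgds the difference in STZ, SD vs Con, SD was called with the macrophage covariate (0.37, adjusted p = 0.0407).

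**Figure D3:**
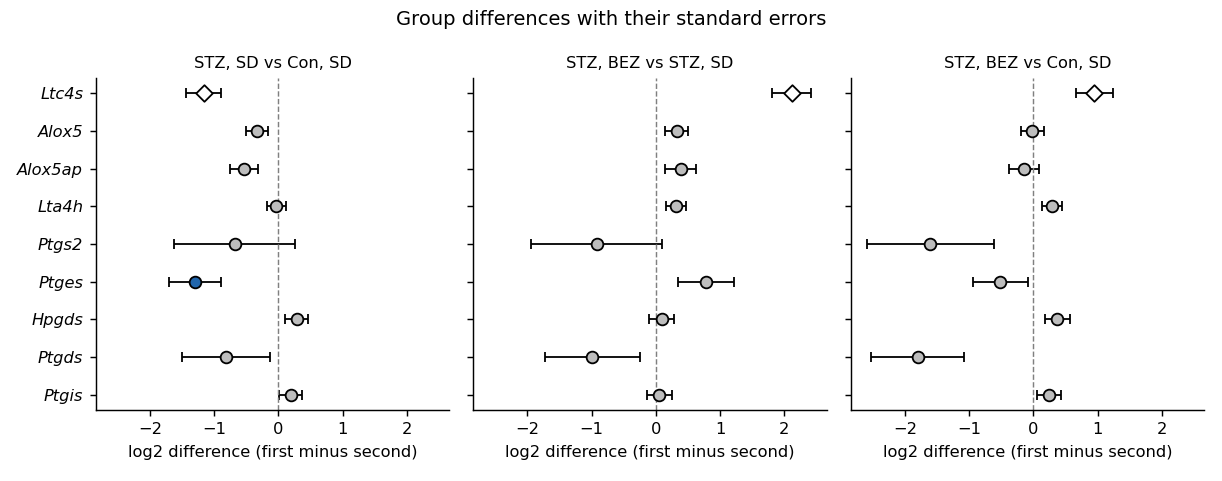
Differences (log2, first group minus second) of the 9 measured genes in the 3 comparisons, with bars for the standard error. The blue point is the called gene (Ptges, -1.29), grey points were not called, and the open diamond is Ltc4s, shown without a test at -1.16, 2.11 and 0.95.

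**Figure D4:**
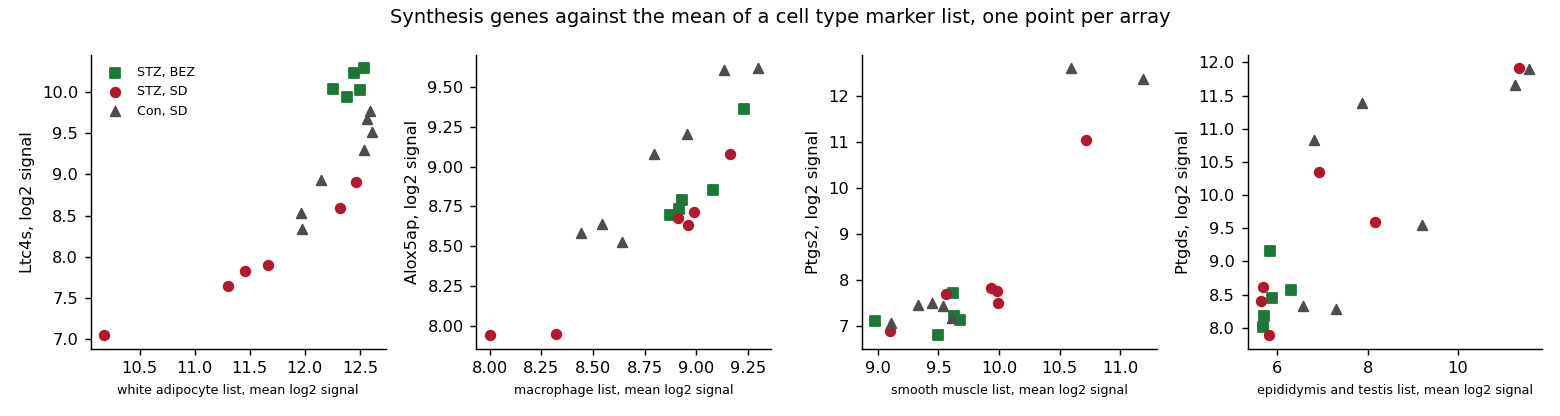
Signals (log2) of Ltc4s, Alox5ap, Ptgs2 and Ptgds against the mean signal of white adipocyte, macrophage, smooth muscle and epididymis and testis markers, with 1 point per array. The 3 arrays with Ptgs2 above 11 have the highest smooth muscle means, and the STZ, BEZ arrays lie above the Con, SD arrays of like adipocyte mean for Ltc4s.

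The other genes of the pathway were counted in 4 lists. Of the phospholipases and related lipases that can release arachidonic acid, 19 of 20 listed were measured, and 4 fell and none rose in STZ, SD vs Con, SD, where 4.52% of all genes fell and 5.82% rose. The secreted phospholipase Pla2g2e had signals of 8.27, 7.89, 8.91, 8.04 and 8.14 in STZ, BEZ, 7.12 to 7.74 (median 7.47) in STZ, SD and 7.92 to 9.68 (median 8.94) in Con, SD. The STZ, SD arrays lay below all arrays of both other groups. Pla2g2e fell by 1.45 (SE 0.26, adjusted p = 0.00773) in STZ, SD vs Con, SD and kept this call in all 35 alternatives. Its difference was 0.81 (SE 0.28, adjusted p = 0.292) in STZ, BEZ vs STZ, SD and -0.64 (SE 0.27, adjusted p = 0.218) in STZ, BEZ vs Con, SD. The calcium-independent phospholipase Pla2g6 fell by 0.59 (adjusted p = 0.0343), Pla2g12a by 0.39 (adjusted p = 0.05) and Mgll, the monoacylglycerol lipase, by 0.84 (adjusted p = 0.0925). These calls were lost in 4, 6 and 20 of 35 alternatives, and the Mgll difference ran from -1.09 to -0.057. In STZ, BEZ vs STZ, SD none of the 19 was called, against 6 at an unadjusted p under 0.05 (10.2% of all genes). Among these 6, Pla2g6 had 0.66 (SE 0.17, adjusted p = 0.123) and Mgll 0.99 (SE 0.31, adjusted p = 0.240). Pla2g4a, chosen after its values were seen, went the other way, at -0.62 (SE 0.25, adjusted p = 0.373). By their means, 11 of the 19 were higher and 8 lower. The list median was -0.05, 0.12 and -0.08 in the 3 comparisons.

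Of the other synthases and lipoxygenases, 19 of 20 were measured. In STZ, SD vs Con, SD, 2 fell, namely Prxl2b, which encodes a prostaglandin F synthase, by 1.17 (SE 0.26, adjusted p = 0.0172), and the lipoxygenase gene Alox12e by 0.31 (adjusted p = 0.0503). Prxl2b had signals of 8.23, 8.21, 8.48, 8.01 and 7.83 in STZ, BEZ, 7.19 to 8.47 (median 7.80) in STZ, SD and 8.33 to 9.75 (median 9.03) in Con, SD, and only STZ, BEZ replicate 3 and STZ, SD replicates 1 and 5 lay within the range of the Con, SD arrays. The calls were lost in 2 of 35 and 7 of 34 alternatives. Alox12e was dim, with means of 5.66 in STZ, SD and 5.97 in Con, SD beside array medians of 6.76 to 6.88. It was absent from the fit without the dimmest 25% of genes. In STZ, BEZ vs STZ, SD, 1 rose (Ptges2) and none fell, beside 0.682% and 0.0251% of all genes. In STZ, BEZ vs Con, SD, where 4.57% of all genes rose and 1.38% fell, 3 rose (Mgst2, Ptges2 and the soluble epoxide hydrolase gene Ephx2, by 1.22) and 3 fell (Prxl2b by 0.87, Gstm2 by 0.63 and Alox12e by 0.32). The calls were lost in 2 of 35 alternatives for Mgst2, 13 for Ephx2 and Prxl2b and 20 for Gstm2, and in 15 of 34 for Alox12e. Ephx2 and Gstm2 were chosen after their values were seen. The list median was -0.11, 0.02 and 0.03.

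Of the receptors, 15 of 16 were measured, and 1 fell in STZ, SD vs Con, SD, the prostaglandin F receptor gene Ptgfr, by 0.40 (SE 0.13, adjusted p = 0.0800). This is 1 of 15, beside 10.3% of all genes called, and the call was lost in 14 of 34 alternatives. Ptgfr was dim too, with means of 5.58 in STZ, SD and 5.97 in Con, SD, and was absent from the fit without the dimmest 25% of genes. No receptor gene was called in the other comparisons, against 1 and 4 at an unadjusted p under 0.05, beside 10.2% and 18.3% of all genes. Ptger3, the prostaglandin E2 receptor that restrains lipolysis, had signals of 10.02, 9.30, 9.82, 8.64 and 9.03 in STZ, BEZ, 6.45 to 9.63 (median 7.68) in STZ, SD and 8.03 to 10.00 (median 9.24) in Con, SD. STZ, SD was the lowest group by its median, with overlap through replicates 5 and 6 (8.74 and 9.63). Replicate 6 had a pancreas marker mean of 12.46. In STZ, BEZ the highest Ptger3 signal was in replicate 1, which had the highest pancreas mean of that group (10.41). The lowest was in replicate 4 (pancreas mean 8.49), and replicate 5 had 9.03 at a pancreas mean of 6.17. The part of pancreas tissue in the Ptger3 signal was not tested. The differences were -1.14 (SE 0.45, adjusted p = 0.147) in STZ, SD vs Con, SD and 1.42 (SE 0.49, adjusted p = 0.288) in STZ, BEZ vs STZ, SD. The first became called in 5 of 35 alternatives, with differences of -1.71 to -0.84. The second became called in 2 of 35, with differences of 0.75 to 1.76. The receptor genes Ptger1, Ptger2, Ptger4, Ptgdr, Ptgdr2 and Ptgir differed by -0.18 to 0.26 in the 3 comparisons, none of them called. Ptgfrn, which encodes a partner protein of the Ptgfr receptor, had -0.20 (adjusted p = 0.553) in STZ, BEZ vs STZ, SD.

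Of the breakdown and transport genes, 14 of 16 were measured, and 1 rose in STZ, SD vs Con, SD and in STZ, BEZ vs Con, SD, where 10.3% and 5.95% of all genes were called. This was Zadh2, which encodes a prostaglandin reductase, by 0.36 (SE 0.11, adjusted p = 0.0594) and 0.57 (SE 0.11, adjusted p = 0.0125), with signals of 9.31, 9.17, 9.09, 8.94 and 9.13 in STZ, BEZ, 8.58 to 9.20 (median 8.93) in STZ, SD and 8.23 to 8.82 (median 8.57) in Con, SD. The call was lost in 10 of 35 alternatives in STZ, SD vs Con, SD and in 1 of 35 in STZ, BEZ vs Con, SD. Only STZ, SD replicate 3 (8.58) lay within the range of the Con, SD arrays among the diabetic mice. Another reductase gene, Ptgr2, had 0.59 (SE 0.21, adjusted p = 0.317) in STZ, BEZ vs STZ, SD. Hpgd, the dehydrogenase that inactivates prostaglandins, looked at after its values were seen, had -0.71 (SE 0.31, adjusted p = 0.195) in STZ, SD vs Con, SD and -0.85 (SE 0.32, adjusted p = 0.165) in STZ, BEZ vs Con, SD.

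**Figure D5:**
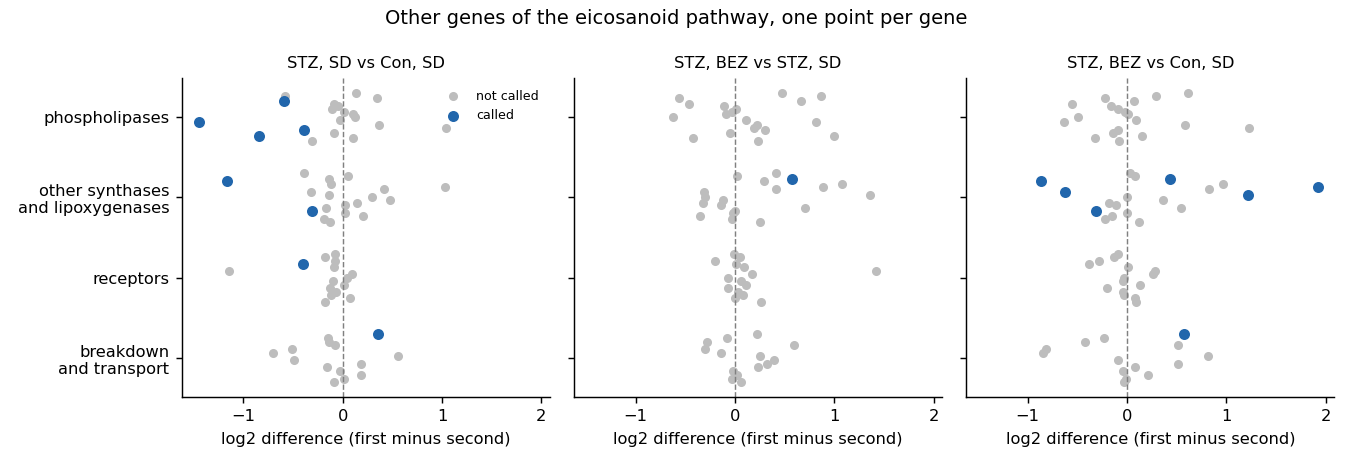
Differences (log2, first group minus second) of the genes of 4 pathway lists in the 3 comparisons, with 1 point per gene and called genes in blue. The phospholipases have 4 called genes in STZ, SD vs Con, SD, all lower, and the synthases have 3 higher and 3 lower in STZ, BEZ vs Con, SD.

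Some arrays carried signal of neighbouring organs. The mean of 12 pancreas markers was 8.49 to 10.41 in STZ, BEZ replicates 1 to 4 and 12.46 in STZ, SD replicate 6, against 6.04 to 6.39 on all other arrays. Without these 5 arrays, which leaves 1 STZ, BEZ array that is assumed to vary like the other groups, the Ltc4s differences were -0.98, 1.85 and 0.88. The Ptges difference in STZ, SD vs Con, SD was then -0.97 (adjusted p = 0.150). Without the 6 arrays of high epididymis signal the Ltc4s differences were -1.47, 1.99 and 0.52, and without the 3 arrays of high smooth muscle signal they were -1.42, 2.23 and 0.82. For Ptges in STZ, SD vs Con, SD, leaving out these sets gave -1.53 (adjusted p = 0.164) and -1.11 (adjusted p = 0.134). Array medians were 6.76 to 6.88.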

How the data were processed

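Total RNA from visceral fat was hybridised to Affymetrix Mouse Gene 1.0 ST arrays, 1 per mouse, in 18 mice. The deposited values are log2 signals, which the authors made by RMA (background correction, quantile normalization and probe summary) in Affymetrix Expression Console 1.2. No background level, scan batch or genome build was given in the sources used here, so precision is given as the SE of a difference and rests on the number of arrays. Of 35556 probe sets, 21789 had 1 gene symbol, 1621 had several and 12146 were unnamed. The probe set with the highest mean was kept per symbol (19938 genes). The groups were compared in a single limma 3.58.1 fit (R 4.3.3) over 18 arrays, with 15 residual and 2.44 prior degrees of freedom and Benjamini-Hochberg adjustment over all genes. The methods of the study name SAM, which was run as an alternative with 100 permutations per comparison. The scripts were tested on simulated data.

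The members, lists and tests were chosen with earlier results of these data known. Named were all members, the called genes of each pathway list in the first pair of comparisons (or, where none was called, the genes of smallest p), the receptors and the genes closest to Ltc4s and Ptges by the mean absolute difference of centred log2 values. Others are said to have been chosen after their values were seen, which also holds for Slco2a1, Ear6 and the genes closest to Ptgs2 and Ptgds. Comparisons share groups, so their values are given side by side only. The labels call the arrays biological replicates. Alternatives were other normalizations, filters, probe set rules, variance models, thresholds, covariates and left-out arrays. Liver and muscle were not analysed here.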

Additional observations from a re-analysis of the deposited data

Results flagged for a closer look

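In 27 groups of arrays (9 genes in 3 groups), 3 had an array far from the rest of its group by Dixon's criterion, which chance flags in about 1 of 20 groups. Alox5ap was highest in STZ, BEZ replicate 3 at 9.37, against 8.69 to 8.85 in the other STZ, BEZ arrays. Hpgds was highest in the same array at 7.98, against 7.32 to 7.44 in the others. The macrophage marker mean was also highest there within STZ, BEZ, at 9.23. Ptgs2 was highest in STZ, SD replicate 1 at 11.04, against 6.89 to 7.83 in the other STZ, SD arrays, and this array had the highest smooth muscle mean of its group, at 10.72.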

How the results depend on the processing

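The alternatives were fits with 17 other settings and fits without each of the 18 arrays in turn. There were 945 values for the 9 genes under these alternatives. Of these, 878 kept direction and call, 33 changed sign, 21 became called, 11 lost the call and 2 moved by more than the spread between arrays. For Ltc4s, which has no call, a value counted as kept when its direction held and it moved by less than this spread. The sign of Ltc4s was the same in all of them, with differences of -1.47 to -0.44 in STZ, SD vs Con, SD, 1.32 to 2.30 in STZ, BEZ vs STZ, SD and 0.52 to 1.05 in STZ, BEZ vs Con, SD. Ptges stayed lower in STZ, SD vs Con, SD throughout (-1.53 to -0.65). The sign changes were all in differences that were not called in the fit the report gives. The white adipocyte and macrophage covariates and the fits without the smooth muscle or the epididymis arrays were added after seeing the data. The cause of the changes below was not tested. The effect of other probe sets of a gene could not be tried, since each measured gene had 1. Signals over background are not known here, and the number of arrays limits what could be called.

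Without single arrays, the tested genes called were 0 to 2 of 8 in STZ, SD vs Con, SD and 0 in both other comparisons, and the genes of the 4 pathway lists called were 3 to 12, 0 to 7 and 2 to 15 (8, 1 and 7 with all arrays). Differences that changed sign ran from -0.11 to 0.11 for Lta4h in STZ, SD vs Con, SD, from -0.033 to 0.19 for Hpgds and -0.14 to 0.17 for Ptgis in STZ, BEZ vs STZ, SD, and from -0.073 to 0.076 for Alox5 in STZ, BEZ vs Con, SD.

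In STZ, SD vs Con, SD, the tested genes called were 0 of 8 at an adjusted p under 0.05, in a fit of these groups alone and without the pancreas or smooth muscle arrays, 2 with array weights and with the pancreas and epididymis covariates, and 4 with the macrophage covariate. The pathway genes called were 3 at an adjusted p under 0.05, 4 in the fit of these groups alone, 5 without the pancreas, smooth muscle or epididymis arrays, 21 with the pancreas and epididymis covariates and 13 with the macrophage covariate. Lta4h turned to 0.10 with array weights, 0.014 with the pancreas and epididymis covariates, 0.11 without the pancreas arrays, 0.35 with the white adipocyte covariate and 0.041 with the macrophage covariate. Alox5 turned to 0.053 with the white adipocyte covariate, Ptgds to 0.017 with the pancreas and epididymis covariates and Ptgs2 to 0.21 without the smooth muscle arrays. The genes called among all were 680 to 4264.

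In STZ, BEZ vs STZ, SD, 1 tested gene was called with the pancreas and epididymis covariates (Lta4h, 0.41). The pathway genes called were 6 by SAM, 2 without the dimmest 25% of genes, 4 with array weights, 11 with the pancreas and epididymis covariates, 7 without the smooth muscle arrays and 0 at an adjusted p under 0.05, with all probe sets, with quantile normalization, with equal array medians, in the fit of these groups alone, without the pancreas or epididymis arrays and with the adipocyte or macrophage covariate. With array weights Hpgds was -0.00078 and Ptgis -0.20. Without the pancreas arrays Ptges was -0.15, Hpgds -0.18 and Ptgis -0.048. With the white adipocyte covariate Alox5 was -0.11, Alox5ap -0.10, Lta4h -0.10, Hpgds -0.20 and Ptgis -0.29, and with the macrophage covariate Hpgds was -0.14 and Ptgis -0.15. The genes called among all were 2 to 2199.

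In STZ, BEZ vs Con, SD, the tested genes called were 4 by SAM, 2 with array weights and with the pancreas and epididymis covariates, and 1 in the fit of these groups alone and with the adipocyte or macrophage covariate. The pathway genes called were 2 at an adjusted p under 0.05, 24 by SAM, 4 with equal array medians and without the smooth muscle arrays, 21 with array weights, 15 in the fit of these groups alone, 20 with the pancreas and epididymis covariates, 0 without the pancreas arrays and 14 with the adipocyte covariate. Alox5 turned to 0.15 with the pancreas and epididymis covariates and 0.050 without the pancreas arrays. The genes called among all were 279 to 5011.

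The labels do not say that the replicate numbers pair mice, and no pairing was used in the main fit. Same-numbered arrays deviated from their group means with correlations of -0.36 to 0.70 over 6 pairs in STZ, SD vs Con, SD. The correlations were -0.16 to 0.04 over 5 pairs in STZ, BEZ vs STZ, SD and -0.14 to 0.05 over 5 pairs in STZ, BEZ vs Con, SD. The highest was that of replicate 3, whose arrays had epididymis and testis means of 11.36 in STZ, SD and 11.26 in Con, SD. Such correlations cannot exclude that mice were handled in numbered sets. With the number as a replicate block, 1, 0 and 1 of the 8 tested genes and 1, 0 and 3 pathway genes were called, Ptgis was -0.025 in STZ, BEZ vs STZ, SD and Ltc4s had -1.08, 2.06 and 0.99.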
